A study of Mus musculus with 2 samples.

Results

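The 4 intracisternal A particle (IAP) elements described here lie in or beside Mbnl1, Marveld2, Slc15a2 and Eps8l1, genes known from the literature for an IAP copy whose methylation varies between mice. They were chosen by their mm10 coordinates and by no value of these data, but earlier results of these data were known when the choice was made. The intervals, taken with 1000 bp on either side and, for Eps8l1, 6000 bp more, held 141 CpG positions out of 1485057 covered in at least 1 library. Of these, 29 belonged to Mbnl1, 37 to Marveld2, 26 to Slc15a2 and 49 to Eps8l1. The 4 elements have 8 long terminal repeats (LTRs) out of 13038 IAP LTRs found in the genome, and all 8 were among the 8204 that reached 20 calls in each library.

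DNA methylation was measured by TEPBAT, a bisulfite sequencing method that enriches IAP copies by PCR. One primer sits in the LTR and the other at a random place nearby, so a fragment spans an LTR end and its neighbouring sequence. There was 1 library of sperm DNA and 1 library of tail DNA, both from the same adult C57BL/6J male, and the labels name no mutation or treatment. The sperm library held 95744413 methylation calls, 87.7% of them methylated, and the tail library 55366653 calls, 88.4% methylated. On the mitochondrial genome, where little methylation is known, 7.04% of 71 sperm calls and 0.626% of 1277 tail calls were methylated. With 1 library for each tissue there was no replicate, and a test sets 1 library against the other and says nothing of other mice. Reads were amplified by PCR and carried no molecular identifiers, so that several may stem from 1 molecule. The exact binomial (Clopper-Pearson) 95% intervals therefore cover counting error only. The p-values of deep LTRs are too small, and those of thinly read LTRs and positions may be too. Tail is a mixture of cell types, so a middle level may come from a share of cells or from a share of alleles in each cell, which cannot be told apart here.

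IAP elements are endogenous retroviruses of rodents in which a pair of LTRs flanks an internal sequence with gag, pro and pol genes. The 5′ LTR carries the promoter of the element, and CpG methylation of the LTR accompanies its silencing in somatic cells. A small number of copies in inbred mice escape full methylation to a degree that differs among littermates but is similar across the tissues of 1 mouse, and such copies are called metastable epialleles or variably methylated IAPs. Mbnl1 encodes muscleblind-like 1, a regulator of RNA splicing. Marveld2 encodes tricellulin, a protein of tight junctions where 3 epithelial cells meet. Slc15a2 encodes PEPT2, a proton-coupled peptide transporter, and Eps8l1 encodes a relative of the actin regulator EPS8.

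The LTR sequences carry the features that the 4 elements share, so both measured ends are shown for each element, from the 5′ LTR of GRCm38 (mm10), minus strand, in the direction of the element and with CpG sites in capitals. The first set runs from the start of the LTR to the end of the site of the IAP-BS1 primer. The Mbnl1 stretch is at chr3:60494960-60495084, that of Marveld2 at chr13:100594101-100594225, that of Slc15a2 at chr16:36770228-36770350 and that of Eps8l1 at chr7:4460578-4460702.
Mbnl1: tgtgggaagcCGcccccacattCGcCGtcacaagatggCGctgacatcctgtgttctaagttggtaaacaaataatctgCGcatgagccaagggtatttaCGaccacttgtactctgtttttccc
Marveld2: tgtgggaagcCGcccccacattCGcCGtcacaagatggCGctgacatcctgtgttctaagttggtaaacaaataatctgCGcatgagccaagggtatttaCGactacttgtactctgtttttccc
Slc15a2: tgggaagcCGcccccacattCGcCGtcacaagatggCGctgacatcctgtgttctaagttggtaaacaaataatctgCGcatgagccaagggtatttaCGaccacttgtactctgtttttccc
Eps8l1: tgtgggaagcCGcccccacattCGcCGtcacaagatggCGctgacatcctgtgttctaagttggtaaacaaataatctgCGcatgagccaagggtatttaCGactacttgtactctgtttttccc
The Slc15a2 stretch begins 2 bases inside the chosen interval because the search matched the LTR from there. Each stretch holds 6 CpG sites.

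The second set runs from the site of the IAP-BS2 primer to the end of the LTR, where most calls of the 4 elements fell. The Mbnl1 stretch is at chr3:60494750-60494841, that of Marveld2 at chr13:100593871-100593962, that of Slc15a2 at chr16:36769955-36770046 and that of Eps8l1 at chr7:4460351-4460442, again on the minus strand.
Mbnl1: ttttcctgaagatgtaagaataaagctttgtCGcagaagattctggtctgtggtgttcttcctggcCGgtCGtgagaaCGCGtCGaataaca
Marveld2: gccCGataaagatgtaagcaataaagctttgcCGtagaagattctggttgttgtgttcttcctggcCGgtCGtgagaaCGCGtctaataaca
Slc15a2: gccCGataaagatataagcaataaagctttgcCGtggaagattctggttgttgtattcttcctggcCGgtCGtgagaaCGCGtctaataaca
Eps8l1: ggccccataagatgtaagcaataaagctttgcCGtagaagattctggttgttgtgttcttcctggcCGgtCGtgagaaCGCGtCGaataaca
The primer site ends 62 bases before the end of the LTR in all 4 elements, and only CpG sites in those last bases were read on this side. Mbnl1 and Eps8l1 keep a CpG in the last 10 bases that Marveld2 and Slc15a2 lack.

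In every element the 5′ and the 3′ LTR were identical, with 0 differing bases, over 335 bp for Mbnl1, 355 bp for Marveld2, 396 bp for Slc15a2 and 352 bp for Eps8l1. A read that lies wholly in the LTR therefore matches both ends of its element, and the placement of a pair rests on the mate in the internal sequence or the flank. All 4 elements had both LTRs with internal sequence between them, measured from 5212 to 5296 bp in all, lay on the minus strand and were bounded by a repeat of 6 bp of the target site. The best match of the search was IAPLTR1 for Marveld2 (99.2% identity), Eps8l1 (98.6%) and Slc15a2 (86.3%). For Mbnl1 it was IAPLTR1a at 92.4%, which goes against the label IAPLTR1, so that the levels and differences of its LTRs are also set against IAPLTR1a copies. The queries came from a shortened copy of the study's LTR list, and the subfamily of Mbnl1 and of Slc15a2 rests on them. The LTRs hold 17 CpG sites in Mbnl1 and Slc15a2, 18 in Marveld2 and 20 in Eps8l1.

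All 8 LTRs shared 1 version of the IAP-BS1 primer site, shown because it sets the 4 elements apart from most IAPLTR1 copies. The primer and the site, at chr3:60490083-60490101 on the plus strand in the Mbnl1 3′ LTR, are written in the direction of the primer, with the bases that differ in capitals and with n for the A or T of the primer. A T of the primer was allowed to meet a converted C.
Primer IAP-BS1: ggggaaggtagagtatang
Site in the 4 elements: gggAaaAAcagagtacaag
The substitutions were G4A, G7A and G8A, with the base of the primer first and positions counted from 1 at its 5′ end. Of 1455 other IAPLTR1 LTRs found, 142 (9.76%) held this same 19-base site and 1101 matched the primer in full. The IAP-BS2 site had 2 mismatches in Eps8l1, 4 in Marveld2, 5 in Slc15a2 and, in an alignment without gaps, 8 in Mbnl1.

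The gene setting differed among the 4 elements (GENCODE M21). The Mbnl1 element, at chr3:60489873-60495084, lay in an intron of all 5 transcripts that span it, 17043 bp from the start of the gene and on the opposite strand. The Slc15a2 element, at chr16:36765055-36770350, lay in an intron of all 3 spanning transcripts, 14612 bp from the start of the gene and on the same strand. The Marveld2 element, at chr13:100588952-100594225, lay outside the gene, 1732 bp past its end and on the same strand. The Eps8l1 element, at chr7:4455442-4460702, overlapped the start of the gene with its 5′ LTR. Of the 14 annotated transcripts, 2 start inside that LTR and run against the direction of the element, and another starts 13 bp past its edge. The element also overlaps the annotated gene Gm15494.

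Levels are fractions from 0 to 1, averaged over all covered CpG positions of an LTR with the strands kept apart. The tail level was below the sperm level in all 8 LTRs. In the Eps8l1 3′ LTR this came only, and in the Slc15a2 3′ LTR mostly, through positions with 1 call. In the Mbnl1 5′ LTR it came mostly through 4 antisense positions with 2 sperm calls each. Of the 8, 3 were called lower in tail and 0 lower in sperm, by Fisher's exact test on summed calls with Benjamini-Hochberg adjustment over all LTRs and a minimum difference of 0.2 in level. Over all 8204 IAP LTRs, 1.88% were called lower in tail and 6.53% lower in sperm. The 3 were the Marveld2 3′ LTR, the Slc15a2 5′ LTR and the Eps8l1 5′ LTR. Among other IAPLTR1 copies the median level of 5′ LTRs was 0.897 in sperm and 0.930 in tail (n = 695), and that of 3′ LTRs 0.920 and 0.924 (n = 678). The usual IAPLTR1 copy thus had a tail level at or just above its sperm level. Most LTRs of the 4 elements lay on the other side. So did the median of other IAPLTR1 copies with the same IAP-BS1 site, a group made after the values were seen. Its sperm minus tail difference was 0.046 in 5′ LTRs and 0.067 in 3′ LTRs. In the Slc15a2 3′ LTR, positions with at least 20 calls gave 0.972 in sperm and 0.970 in tail. In the Eps8l1 3′ LTR they gave 0.897 and 0.898.

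**Figure D1:**
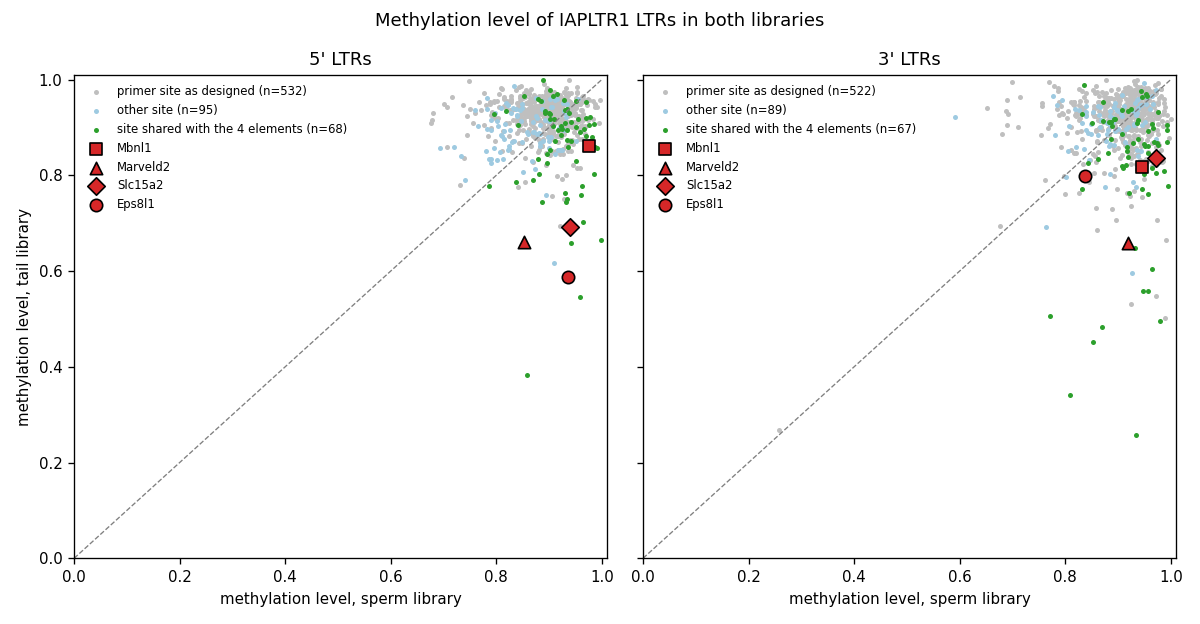
Methylation level of IAPLTR1 LTRs in the sperm library (x axis) and the tail library (y axis), for 5′ LTRs (left) and 3′ LTRs (right). Each dot is 1 other IAPLTR1 copy, coloured by its IAP-BS1 primer site, the large red symbols are the 4 elements (Mbnl1 is IAPLTR1a by the search), and the dashed line marks equal levels. All 8 red symbols lie below the line, those of the Slc15a2 and Eps8l1 3′ LTRs mainly through positions with 1 call. That of the Mbnl1 5′ LTR does so mainly through positions with 2 sperm calls each.

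At Eps8l1, the 5′ LTR at the gene start had a level of 0.935 in sperm and 0.588 in tail, a difference of 0.347 (adjusted p = 2.0e-08, Fisher's exact test). Only 2 of 695 other IAPLTR1 5′ LTRs had a lower tail level and 2 a larger difference. The level in sperm was ordinary, with 568 of the 695 lower. In summed calls, 147 of 161 were methylated in sperm and 485 of 684 in tail, which is a smaller difference of 0.204. The lowest positions had 28 to 51 tail calls each and weigh less in the sum.

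The low positions of the Eps8l1 5′ LTR all lay on its outer side, towards the gene. On the antisense strand of the element, read through IAP-BS1, 90 of 98 sperm calls were methylated (0.918, 95% interval 0.845 to 0.964) but only 31 of 155 tail calls (95% interval 0.140 to 0.272). This was lower than in all but 1 of 648 other IAPLTR1 5′ LTRs, whose median was 0.932. Those copies were read more deeply on this strand, with a median of 935.5 tail calls. On the sense strand, read through IAP-BS2 at the inner end, 57 of 63 sperm calls (0.905) and 454 of 529 tail calls (0.858) were methylated, and here 66 of 658 other copies lay lower in tail. The inner end of the same LTR was thus in the lower range of other copies in tail (median 0.931, lower quartile 0.904), and its outer end near the bottom.

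Single positions showed the same split. At 101 bases after the LTR start, 19 of 27 sperm calls and 0 of 51 tail calls were methylated, and at 80 bases 25 of 25 and 29 of 43. At 39 bases the counts were 24 of 24 and 1 of 33, and at 26 bases 20 of 20 and 1 of 28. The exact 95% interval of 0 in 51 calls reaches up to 0.0698. All 4 were called lower in tail (adjusted p from 1.9e-14 to 0.0025, Fisher's exact test over all positions). They lie next to each other on the same fragments, so they are not independent of one another. How many molecules their calls stem from is not known, and most methylated tail calls came from the position at 80 bases.

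These 4 positions fall in the promoter of Eps8l1, which is printed because most of it is LTR sequence. The window of 300 bases at chr7:4460447-4460746, plus strand, is from RefSeq (GRCm38.p6), with CpG sites in capitals.
Eps8l1 promoter: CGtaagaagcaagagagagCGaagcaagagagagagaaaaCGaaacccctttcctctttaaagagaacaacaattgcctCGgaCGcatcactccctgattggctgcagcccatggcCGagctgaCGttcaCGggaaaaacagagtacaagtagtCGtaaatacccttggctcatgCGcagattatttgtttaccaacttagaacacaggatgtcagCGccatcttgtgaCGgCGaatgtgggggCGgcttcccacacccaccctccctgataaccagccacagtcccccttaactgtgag
Of the 300 bases, 256 are in the 5′ LTR and 44 beyond it, and the RefSeq start lies 5 bases inside the LTR edge. The window holds 14 CpG sites, of which 6 were covered. The 4 positions above are at bases 155, 176, 217 and 230 of the window, and the remaining covered positions had 1 call each in sperm and none in tail. Past the LTR edge, 75 bases from it, 19 of 28 sperm calls and 33 of 50 tail calls were methylated, so the low tail level was not seen at that position.

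The outer stretch of the 5′ LTR has no readable counterpart in the 3′ LTR of the Eps8l1 element. There the antisense strand had 4 sperm and 2 tail calls, so the LTRs cannot be compared at that stretch. The 3′ LTR, far from the gene start, was read almost only at its end. Its level was 0.838 in sperm and 0.798 in tail (adjusted p = 1, Fisher's exact test), and in summed calls 5233 of 5827 and 4344 of 4838 were methylated, both 0.898. Its 6 deep positions spread from 0.772 to 0.999 in sperm and from 0.749 to 0.996 in tail, and 4 of them lay lower in tail. None of the 6 passed the minimum difference of 0.2. Just outside this LTR, 94 bases past its end, 239 of 359 sperm calls (0.666) and 113 of 123 tail calls (0.919) were methylated, the opposite direction.

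**Figure D2:**
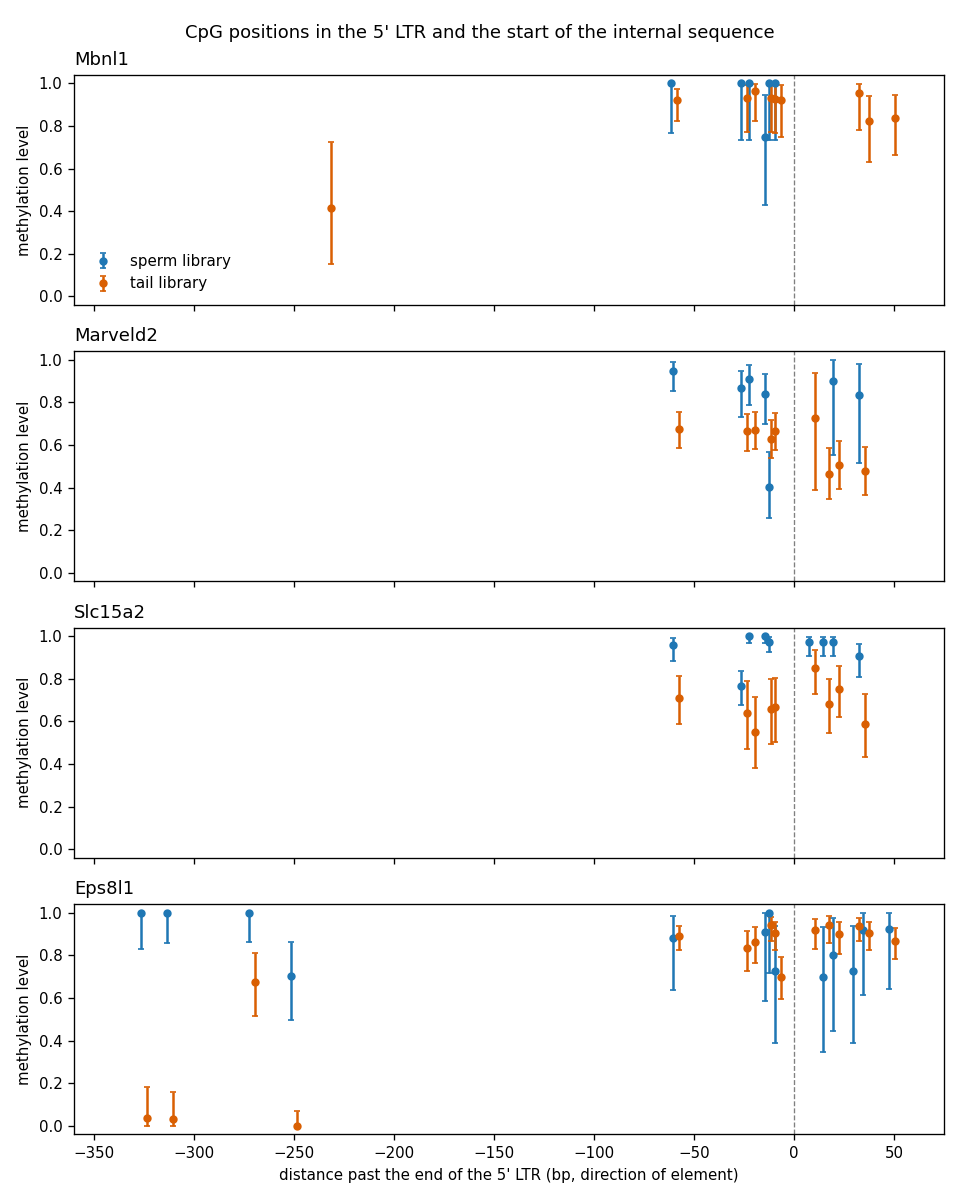
Methylation level of CpG positions with at least 10 calls in the 5′ LTR and the first internal bases of each element (y axis) by distance past the end of the 5′ LTR in bp (x axis, dashed line at the LTR end). Points are the sperm (blue) and tail (orange) libraries, shifted slightly apart, with exact 95% binomial intervals. The tail points of Eps8l1 are near 0 at 3 of the 4 outer positions, those of Marveld2 and Slc15a2 lie in the middle range at the inner end.

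At Marveld2, both LTRs had middle levels in tail. The 3′ LTR had a level of 0.919 in sperm and 0.658 in tail, a difference of 0.261, and the summed calls were 30845 of 32304 methylated in sperm (0.955, 0.953 to 0.957) and 5666 of 9198 in tail (0.616, 0.606 to 0.626). Fisher's exact test gave an adjusted p too small to be stored. Of 678 other IAPLTR1 3′ LTRs, 15 had a lower tail level and 16 a larger difference. The positions with at least 20 calls gave 0.955 ± 0.0262 in sperm and 0.621 ± 0.0653 in tail (SD over 5 positions), with no overlap, and all 5 were called lower in tail. The tail level was therefore middle at each position and not a mean of high and low ones.

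The Marveld2 5′ LTR had a level of 0.853 in sperm and 0.661 in tail, a difference of 0.192 that stayed just under the minimum of 0.2 (adjusted p = 4.2e-05, Fisher's exact test). Only 4 of 695 other IAPLTR1 5′ LTRs had a lower tail level. The 5 tail positions were alike, from 0.630 to 0.674. In sperm 4 positions lay between 0.841 and 0.947, while the position 11 bases before the LTR end had 17 of 42 calls methylated (0.405) against 80 of 120 in tail (0.667). That position was called lower in sperm (adjusted p = 0.0073, Fisher's exact test) and the other 4 lower in tail. With 20 bases left out at both ends of the LTR the difference was 0.275 and the LTR was called, which leaves out the position that was lower in sperm. In summed calls the difference was 0.147, and over positions with at least 5 or at least 20 calls it was 0.133. The sperm level includes 2 antisense positions with 1 call each, and over the deep positions it was 0.794.

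Middle tail levels went on past the inner edge of the Marveld2 5′ LTR and past the outer edge of its 3′ LTR, while the remaining edges had at most 2 calls in either library. In the internal sequence, read almost only beside the 5′ LTR at 12 positions in each library, 145 of 167 sperm calls (0.868, 0.807 to 0.916) and 130 of 273 tail calls (0.476, 0.416 to 0.537) were methylated. In the 300 bp past the 3′ LTR, 12158 of 12870 sperm calls (0.945) and 1279 of 2393 tail calls (0.534) were methylated over 6 positions. The levels of these positions ran from 0.936 to 1 in sperm and from 0.109 to 0.818 in tail, without overlap. The lowest tail position, 120 bases past the LTR, had 7 of 64 calls methylated against 35 of 35 in sperm, and the next position, 101 bases past, 199 of 253 against 406 of 413. The flank was low in tail as a whole, but its positions differed widely from each other.

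Flanks of all IAP LTRs were compared in the same way over 4008 flanks, of which 17.0% were called lower in tail and 14.9% lower in sperm. Flanks of 4 LTR ends of the elements had at least 20 calls in both libraries, and 2 of them, those downstream of Marveld2 and Mbnl1, were called lower in tail. The flank downstream of Eps8l1 was called lower in sperm (adjusted p = 4.3e-08, Fisher's exact test). The Eps8l1 upstream flank was not called (28 of 37 against 33 of 52, adjusted p = 0.307, Fisher's exact test). Of 340 other IAPLTR1 3′ flanks, 60 had a lower tail level than the Marveld2 flank and 31 a larger difference.

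At Mbnl1, the 3′ LTR was the most deeply read of the 8, with 32435 of 34326 sperm calls methylated (0.945, 0.942 to 0.947) and 10508 of 12827 tail calls (0.819, 0.812 to 0.826). Its level was 0.945 in sperm and 0.817 in tail, and the difference of 0.128 was under the minimum of 0.2. Of 678 other IAPLTR1 3′ LTRs, 57 had a lower tail level and 43 a larger difference, and of 795 IAPLTR1a 3′ LTRs 79 and 25. All 6 positions lay lower in tail, from 0.694 to 0.881 against 0.922 to 0.977 in sperm, without overlap. The position 21 bases before the LTR end fell furthest, from 5302 of 5648 calls in sperm (0.939) to 1364 of 1965 in tail (0.694), and was the only one of the 6 called.

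The flank of the Mbnl1 3′ LTR differed more than the LTR itself. At its only covered CpG, 232 bases past the LTR end, 4656 of 4699 sperm calls (0.991, 0.988 to 0.993) and 1166 of 2072 tail calls (0.563, 0.541 to 0.584) were methylated. Of 340 other IAPLTR1 3′ flanks, 71 lay lower in tail and 35 had a larger difference. The 5′ LTR was read thinly and stayed high in both libraries, with 79 of 82 sperm calls (0.963) and 215 of 238 tail calls (0.903) methylated. Its difference was not called (0.113 in level and 0.060 in summed calls, adjusted p = 0.124, Fisher's exact test). Of 695 other IAPLTR1 5′ LTRs, 88 had a lower tail level and 28 a larger difference, and of 806 IAPLTR1a 5′ LTRs 99 and 15. These ranks use the mean over positions, of which 4 on the antisense strand had 2 sperm calls each. In sense calls, 71 of 74 in sperm (0.959) and 190 of 204 in tail (0.931) were methylated. By this share, 332 of 658 other IAPLTR1 5′ LTRs lay lower in tail. The outer side of this LTR had 25 of 34 tail calls methylated (0.735, 0.556 to 0.871) and 8 of 8 sperm calls, too few to show a difference. In the internal sequence 34 of 39 sperm calls and 141 of 166 tail calls were methylated (0.872 and 0.849).

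**Figure D3:**
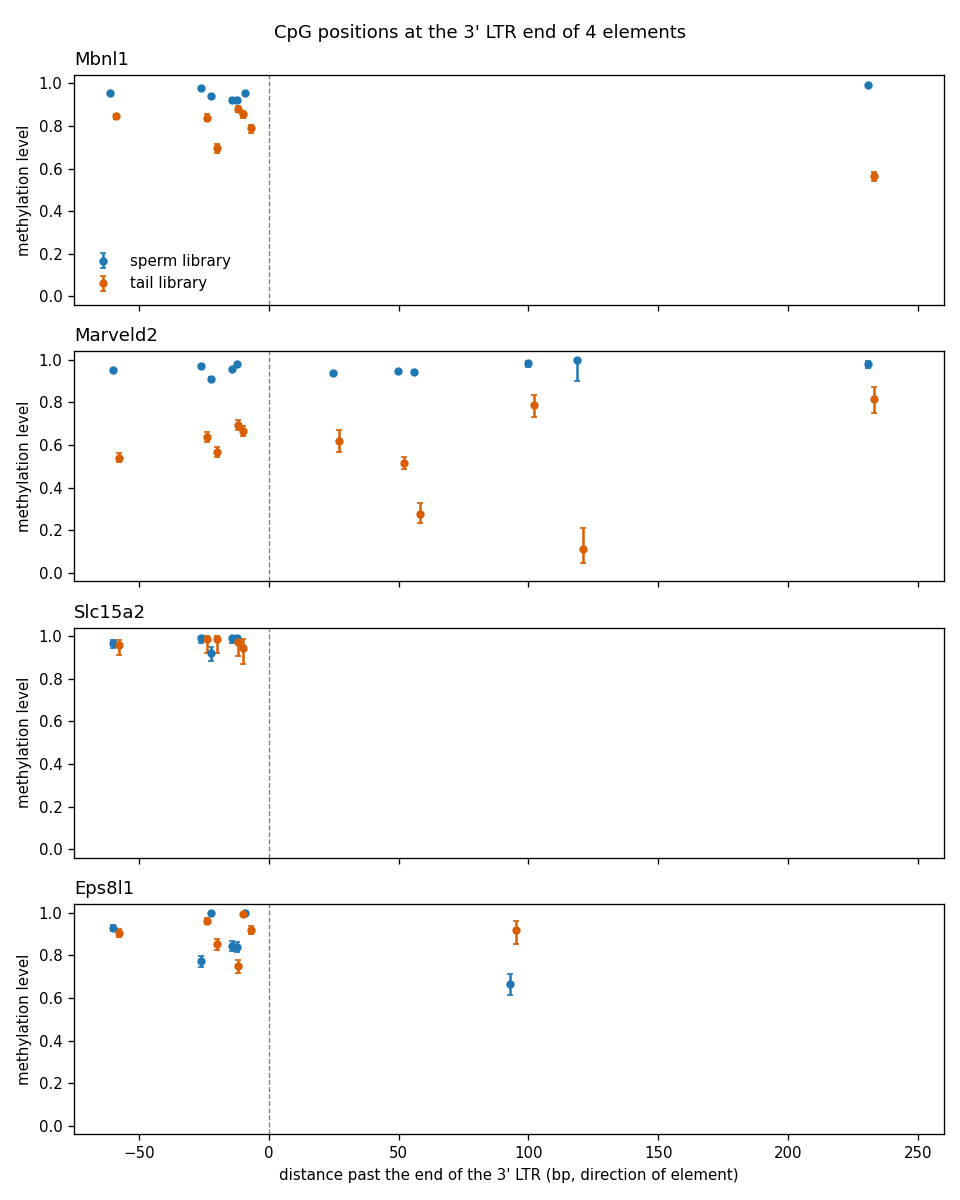
Methylation level of CpG positions with at least 10 calls at the end of the 3′ LTR and in the flank past it (y axis) by distance from the LTR end in bp (x axis, dashed line at the end). Points are the sperm (blue) and tail (orange) libraries, shifted slightly apart, with exact 95% binomial intervals. Sperm and tail do not overlap in Mbnl1 and Marveld2, overlap in Slc15a2 and cross in Eps8l1.

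At Slc15a2 the LTRs of 1 element differed from each other in tail, although they have the same sequence. The 5′ LTR had a level of 0.940 in sperm and 0.692 in tail, a difference of 0.247 (adjusted p = 1.7e-21, Fisher's exact test), with 500 of 533 and 153 of 233 calls methylated. Of 695 other IAPLTR1 5′ LTRs, 5 had a lower tail level and 6 a larger difference. The tail level includes 4 antisense positions with 1 call each, where sperm had none. Over positions with at least 20 calls the tail level was 0.646 and the difference 0.294. The 5 positions of the inner end ranged from 0.553 to 0.710 in tail and from 0.765 to 1 in sperm, and 4 of the 5 were called lower in tail. The exception, 25 bases before the LTR end, had 88 of 115 calls methylated in sperm and 25 of 39 in tail.

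The Slc15a2 3′ LTR stayed methylated in tail, with 419 of 434 calls (0.965, 0.944 to 0.981) against 1481 of 1524 in sperm (0.972, 0.962 to 0.980). Its level of 0.836 in tail against 0.972 in sperm rests on 2 positions with 1 call each, and the difference fell to 0.006 in summed calls (adjusted p = 0.562, Fisher's exact test). None of its 5 deep positions was called. The internal sequence beside the 5′ LTR followed that LTR, with 282 of 294 sperm calls (0.959) and 155 of 215 tail calls (0.721) methylated. At 34 bases past the 5′ LTR 59 of 65 sperm and 27 of 46 tail calls were methylated, and at 21 bases 73 of 75 and 43 of 57. The flanks of this element had fewer than 20 calls.

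**Figure D4:**
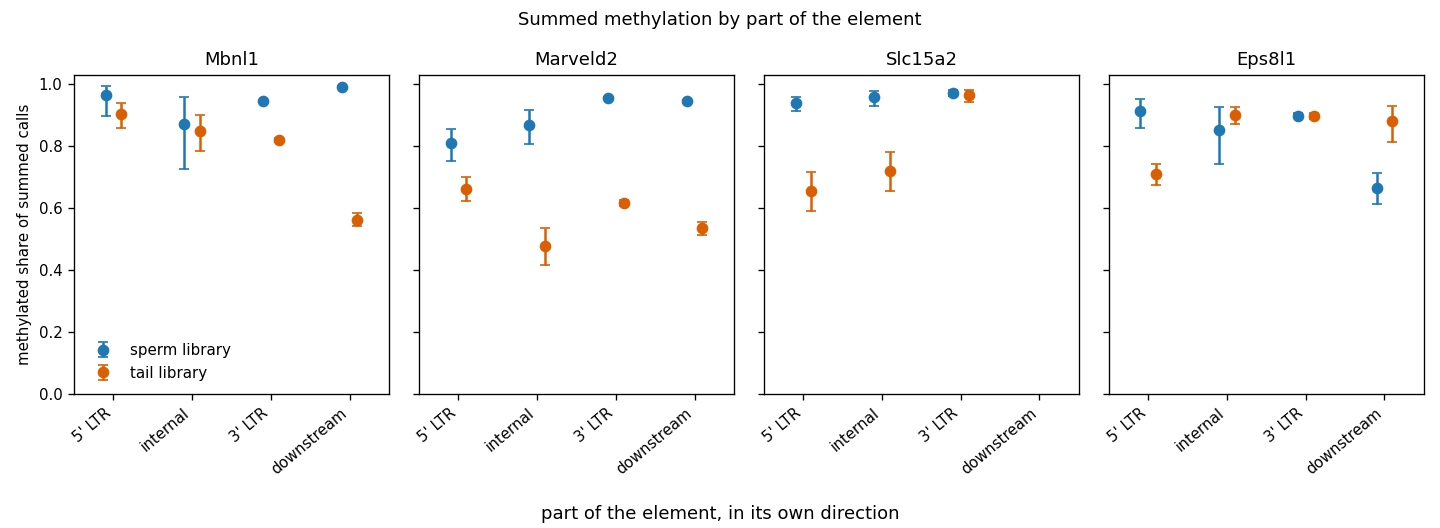
Methylated share of summed calls (y axis) in the parts of each element with at least 10 calls, in the direction of the element (x axis), for the sperm (blue) and tail (orange) libraries with exact 95% binomial intervals. The downstream part is 1000 bp long, and 7000 bp for Eps8l1. The tail share is lower in all 4 parts of Marveld2 as far as they were read, at the 5′ end of Slc15a2, at the 5′ LTR of Eps8l1 and at the 3′ end of Mbnl1.

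Over the 8 LTRs, 36 positions had at least 20 calls in both libraries. The tail level was lower at 32 of them, 18 were called lower in tail and 1 lower in sperm. Over all 57944 such positions of IAP LTRs, 3.91% were called lower in tail and 9.82% lower in sperm. The share of them with a lower tail level, called or not, was not counted, so the 32 has no background beside it. Neighbouring positions share fragments and are not independent. The called positions came from 5 LTRs, with 5 in the Marveld2 3′ LTR, 4 each in the 5′ LTRs of Marveld2, Slc15a2 and Eps8l1, and 1 in the Mbnl1 3′ LTR. No position was called in the 3′ LTRs of Slc15a2 and Eps8l1, and the Mbnl1 5′ LTR had no position deep enough in sperm.

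Copies with the same primer site as the 4 elements were described as a group, a choice made after the values were seen. Of 68 other IAPLTR1 5′ LTRs with this site, 6 (8.82%) were called lower in tail, against 2 of 532 (0.376%) that match the primer. Of 67 3′ LTRs with the site 11 (16.4%) were called, against 5 of 522 (0.958%). In IAPLTR1a, the subfamily of Mbnl1 by the search, 2 of 38 5′ LTRs (5.26%) and 1 of 37 3′ LTRs (2.70%) with the site were called, against 0 of 522 and 0 of 510 that match the primer. Median tail levels with the site were 0.912 and 0.925 there, against 0.917 and 0.910. In IAPLTR1 the median tail level with the site was 0.896 in 5′ LTRs and 0.864 in 3′ LTRs, against 0.936 and 0.928 in copies that match the primer. With solo and other LTRs included, 18 of 137 copies with the site and 7 of 1098 that match the primer were called lower in tail, so most copies with the site were not called.

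The shared site also moved with the depth of 1 side of the LTR. The median of antisense calls in 5′ LTRs was 4 in sperm and 19 in tail for copies with the shared site, against 1226 and 1005 for copies that match the primer. Sense calls, which come from the other primer, had medians of 296 and 384 against 269 and 262. In sense calls alone, the tail share lay below the sperm share in 65.2% of 66 5′ LTRs with the site and in 67.7% of 65 3′ LTRs, against 19.6% of 484 and 51.2% of 508 that match the primer. The median sense share in tail was 0.912 and 0.910 with the site against 0.935 and 0.937. Whether the site sequence has a part in the levels was not tested.

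For each LTR, the other IAPLTR1 copy of the same type with the nearest pair of levels was named, among copies with at least 100 calls in both libraries. For the Eps8l1 5′ LTR it was a copy on chromosome 12, 49581 bp from Kcnf1, at 0.910 in sperm and 0.616 in tail. For the Slc15a2 5′ LTR it lay on chromosome 5, 5340 bp from Kdelr2, at 0.941 and 0.700. For the Marveld2 LTRs the copies lay on chromosome 6, 13164 bp from Gkn3 (3′ LTR, 0.931 and 0.649), and on chromosome 10, 293457 bp from Tbc1d32 (5′ LTR, 0.941 and 0.660). That these 4 copies had a high sperm and a middle tail level follows from how they were picked. For the Mbnl1 LTRs the copies lay 275713 bp from Sntb1 (3′, 0.942 and 0.823) and 17419 bp from Rcor3 (5′, 0.972 and 0.860). The levels of the Mbnl1 5′ LTR rest in part on positions with 2 sperm calls each. For the 3′ LTRs of Slc15a2 and Eps8l1 the copies lay in Capn9 (0.970 and 0.836) and Cpne8 (0.838 and 0.798). For the last pair the likeness rests on tail or sperm positions of the elements with 1 call each, and the deep positions gave 0.972 and 0.970 for Slc15a2 and 0.897 and 0.898 for Eps8l1. Likeness rests on 2 libraries only.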

How the data were processed

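TEPBAT libraries of sperm and tail DNA, 1 each from the same mouse, were compared. The authors trimmed the reads, mapped them with Bismark (version not given in the sources used here) to mm10, discarded pairs with several matches and deposited counts of methylated and of unmethylated calls per CpG position and strand. The deposited percent methylation was not used further.

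IAP LTRs were found on GRCm38 by blastn 2.17.0 (hits of at least 250 bp and 80% of the query) with 1004 LTR sequences from the study's list, of which only a part (1997 rows) was used here. Subfamily came from the best query, and LTR type from internal sequence within 100 bp. The level was the mean over covered positions. Calls needed at least 20 calls in both libraries, Fisher's exact test (two-sided, scipy 1.17.1) with Benjamini-Hochberg adjusted p under 0.05 over all LTRs, positions or flanks, and a difference of 0.2. The step was tested on simulated data with independent calls and levels from summed calls, which cover neither PCR copies nor the mean over positions. Intervals are exact binomial at 95%. All members are named, and the like copy of each LTR was the smallest sum of absolute differences in both levels. Members and lists were chosen with earlier results of these data known. Flanks of 300 bp, strands, IAPLTR1a copies as a reference and primer-site groups were added after seeing the data.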

Additional observations from a re-analysis of the deposited data

How the results depend on the processing

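No paired analysis was possible because each tissue has 1 library. For the same reason no replicate could be left out. The 3 calls lower in tail and the 0 lower in sperm were the same in number with summed calls, call minimums of 10 and 100, position minimums of 5 and 20 calls and merged strands. With LTRs shortened by 20 bp, 286 of all IAP LTRs were called lower in tail in place of 154, and the Marveld2 5′ LTR passed with 0.275. With a minimum difference of 0.1, more passed by its construction, namely 5 of the 8 LTRs lower in tail, adding Marveld2 5′ (0.192) and Mbnl1 3′ (0.128), 565 of all LTRs lower in tail and 1523 lower in sperm in place of 536, and 3 positions of the 8 LTRs lower in sperm in place of 1. With at least 100 calls per position, which leaves fewer positions, 6 were called lower in tail in place of 18 and 0 lower in sperm. No called result reversed, while the uncalled Eps8l1 3′ difference was -0.000571 with either position minimum. Of the levels, 17 of 62 alternative values in sperm and 20 of 64 in tail were counted as moved from the main level. A moved value can still lie inside the exact binomial interval of the summed calls. The Eps8l1 3′ LTR in sperm, for example, went from 0.838 to 0.898 with summed calls, whose interval was 0.890 to 0.906. Depth limits the outer sides of the 5′ LTRs, where Marveld2 and Slc15a2 had at most 4 antisense calls in a library. It also limits the inner sides of the 3′ LTRs, with at most 8 antisense calls in a library.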
